A study of Mus musculus with 12 samples.

Results

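The genes described here encode the proteins of the cytosolic ribosome, the machine that translates mRNA in the cytoplasm. They were taken by name from the deposited gene table: protein-coding rows whose symbol begins with Rpl or Rps followed by a number, plus the stalk proteins Rplp0, Rplp1 and Rplp2 and the laminin receptor gene Rpsa. The rule gave 84 of the 47643 genes in the table, 52 of the large subunit and 32 of the small subunit, on 19 chromosomes. It used names only and no level or change, although it was chosen with earlier results of these data known. Bulk RNA-seq. had been carried out on 12 libraries of mouse osteoclasts, the bone-resorbing cells that form by fusion of myeloid precursors. In all of them, bone marrow-derived monocytes (BMMs) from femur and tibia of BALB/c wild type mice were driven toward osteoclasts with M-CSF and RANKL and harvested on day 3. OCsCtr were unstimulated, OCsEo had received sorted eosinophils from IL-5tg/4get mice (IL-5 transgenic, with an IL-4 reporter) at 2 eosinophils per BMM, and OCsEoS had received eosinophil supernatant diluted 1 in 2. Both stimuli were given for 48 h from day 0 and then washed away, and each group held 4 replicates. The labels give no mouse age or sex and tie no library to a mouse. The study's methods call the replicates biological, and p-values measure the spread between them.

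Each cytosolic ribosome is built from a small subunit, which reads the mRNA, and a large subunit, which joins amino acids. Their proteins are needed in matched amounts, and most of their mRNAs belong to the TOP class, whose 5' end starts with a C and a run of pyrimidines through which mTOR and the binding protein LARP1 control translation. Ribosomal protein mRNAs are among the most abundant in growing cells, and Myc, S6 kinases and ribosome biogenesis factors are known to work in the same pathway.

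Total counts per library were 27837530 to 40327869, so that 3 counts corresponded to 0.074 to 0.108 CPM, counts scaled to a common library total. No library stood apart in depth, and every pair of replicates of a group differed by more than sampling noise. OCsCtr replicate 1 held the highest share of counts on the mitochondrial genome, 1.43% against 0.487% to 0.898% in the other libraries. All 10 osteoclast markers listed for the check were present, with a summed level of 28358 to 34496 CPM in OCsCtr. Their sum was 18093 to 23205 CPM in OCsEo and 14942 to 22171 CPM in OCsEoS, and 10 of 10 were downregulated in both. This fall moved with every rise described below and its part in them was not tested. In bulk RNA, fewer cells of a type and less RNA per cell cannot be told apart.

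Ribosomal protein mRNAs took up a larger part of the transcriptome after contact with eosinophils or their supernatant. Counts on the 84 genes were 9.03%, 9.54%, 9.19% and 8.94% of all counts in OCsCtr replicates 1 to 4. They were 10.3%, 10.1%, 11.1% and 10.5% in OCsEo and 11.2%, 11.1%, 11.7% and 11.4% in OCsEoS. All 8 stimulated libraries exceeded the highest OCsCtr library, whereas the highest OCsEo library was level with the lowest OCsEoS library. The order of the groups was the same with counts on mitochondrial genes left out of the totals, with means of 9.25% ± 0.261, 10.6% ± 0.415 and 11.4% ± 0.271 (SD, n = 4 each). These shares are sums over members and were not tested.

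Both subunits showed this. Large subunit genes held 4.93% ± 0.137 of all counts in OCsCtr, 5.60% ± 0.210 in OCsEo and 6.03% ± 0.122 in OCsEoS (SD, n = 4 each). Small subunit genes held 4.25% ± 0.129, 4.90% ± 0.207 and 5.30% ± 0.139. The ratio of large to small subunit counts was 1.157 to 1.165 in OCsCtr, 1.134 to 1.147 in OCsEo and 1.125 to 1.148 in OCsEoS, so it was lower in every stimulated library than in any OCsCtr library, by about as much as the stimulated libraries differed among themselves.

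**Figure D1:**
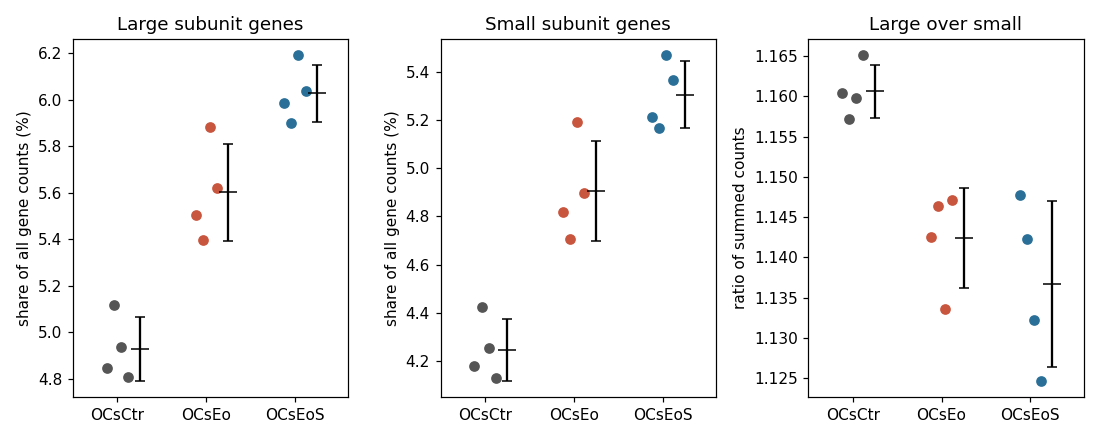
Share of all gene counts on large subunit genes (left, %) and small subunit genes (middle, %), and the ratio of their summed counts (right), for each of the 12 libraries as points, with the mean and SD of the 4 replicates as a line with bars. Large subunit shares lay at 4.81% to 5.12% in OCsCtr and 5.90% to 6.19% in OCsEoS, small subunit shares at 4.13% to 4.42% and 5.17% to 5.47%, and the ratio was highest in OCsCtr.

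Gene by gene, the rise was small and broad. Of the 84 genes, 83 passed the filter on low counts (51 large, 32 small). Rpl10l had no count in any library. In OCsEo against OCsCtr, 54 of 83 were upregulated and 0 were downregulated by edgeR's quasi-likelihood test with Benjamini-Hochberg adjustment over 13681 genes, where 9.06% of all genes tested were upregulated and 8.35% downregulated. The members' median log2 fold change was 0.20, or 1.15-fold, with quartiles of 0.15 and 0.26, against -0.007 over all genes tested. In OCsEoS against OCsCtr, 70 of 83 were upregulated and 0 downregulated, where 11.8% and 11.2% of all genes were. Here the median was 0.30, or 1.23-fold, against -0.006 over all genes. For both counts of 0, an unadjusted p under 0.05 also gave 0 members lower and DESeq2 gave 0.

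The size of these changes was below the cut-off often set for a DEG. With a log2 fold change over 0.5 required as well, 0 members remained in OCsEo (0 also at an unadjusted p and 0 by DESeq2) and 2 in OCsEoS, Rpl17 and Rpl11, where 3.27% and 3.63% of all genes were upregulated. The smallest change that was called was a log2 fold change of 0.15 for Rpl6 in OCsEo and 0.16 for Rpl19 in OCsEoS. Every OCsEo library lay above every OCsCtr library for 50 of the 83 members, as for 10.5% of all genes tested, and every OCsEoS library did so for 69, as for 12.6% of all genes. The log2 fold change was positive for 79 members in OCsEo and for 80 in OCsEoS.

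All 54 members called in OCsEo were also called in OCsEoS, 16 more were called in OCsEoS alone, and 13 were called in neither. The comparisons share the OCsCtr libraries. Tested directly, OCsEoS differed from OCsEo in 1 member, Rpl17, which is described below, where 0.095% of all genes were higher in OCsEoS and 0.497% lower (0.0731% higher with a log2 fold change over 0.5). The members' median log2 difference between OCsEoS and OCsEo was 0.10, with 76 of 83 above 0 and 24 higher at an unadjusted p under 0.05. No member was lower, also at an unadjusted p under 0.05 and by DESeq2. Only 5 members had every OCsEoS library above every OCsEo library, where 2.41% of all genes did. For most single members the OCsEo and OCsEoS libraries overlapped.

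**Figure D2:**
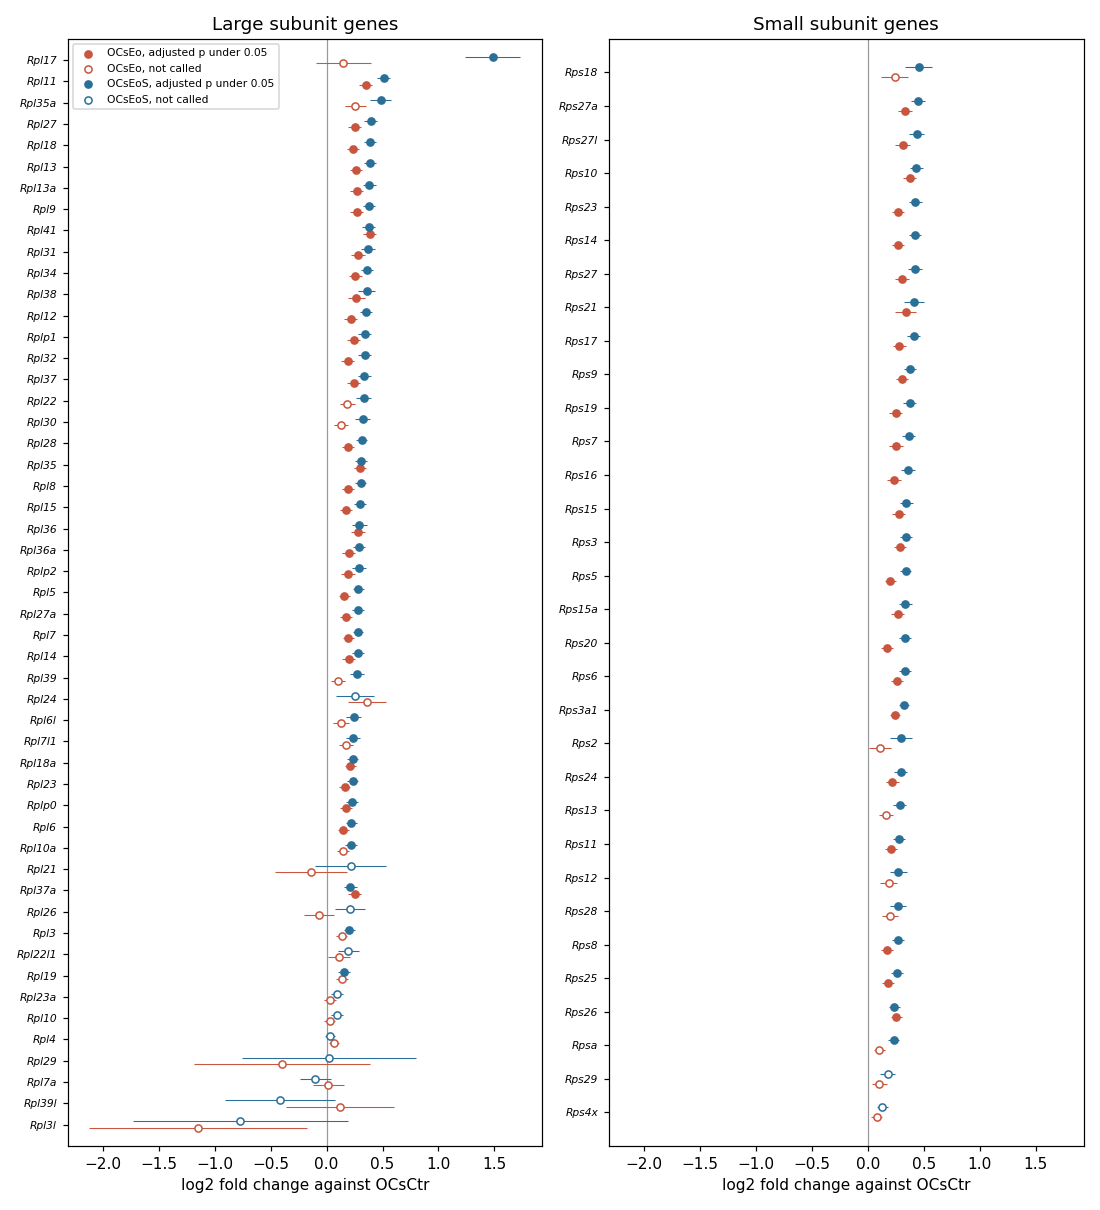
Log2 fold change against OCsCtr of the 51 large subunit (left) and 32 small subunit genes tested (right), for OCsEo (red) and OCsEoS (blue), with bars of 1 standard error. Filled points passed an adjusted p of 0.05. Most points lie between 0.1 and 0.5, Rpl17 in OCsEoS stands out at 1.48, and the wide bars belong to genes with few counts.

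Among the large subunit genes, Rpl41, which encodes a very short basic protein, changed with the lowest p in OCsEo. Its level was 2259, 2524, 2512 and 2400.3 CPM in OCsCtr, 3006, 2952, 3354 and 3349 CPM in OCsEo, and 3008, 3181, 3391 and 3004 CPM in OCsEoS. Neither stimulated group overlapped with OCsCtr, and they overlapped with each other. The log2 fold change was 0.39 ± 0.06 (SE) in OCsEo and 0.38 ± 0.06 in OCsEoS (edgeR adjusted p = 1.1e-04 and 9.48e-05).

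Rpl11, a protein that also binds Mdm2 when ribosome assembly fails, showed 970.1, 1015, 941 and 886 CPM in OCsCtr and 1195, 1113, 1348 and 1199.6 CPM in OCsEo. The OCsEoS libraries held 1324, 1293, 1346 and 1461 CPM. Both stimulated groups lay above OCsCtr in every library. Rpl11 was the only member besides Rpl17 to pass 0.5 on the log2 scale, with 0.51 ± 0.06 in OCsEoS (edgeR adjusted p = 1.2e-05), and with 0.35 in OCsEo (edgeR adjusted p = 5.51e-04). The value in OCsEoS ran from 0.46 to 0.55 over the other settings. It was below 0.5 when OCsCtr replicate 4, OCsEo replicate 1 or OCsEoS replicate 4 was left out or the length trend was taken out.

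Rpl35 and Rpl13 rose by similar amounts. Rpl35, at the exit of the nascent peptide tunnel, was at 727 to 818 CPM in OCsCtr, 891 to 1006 CPM in OCsEo and 938 to 984 CPM in OCsEoS, with log2 fold changes of 0.29 and 0.31. Rpl13 was at 1495 to 1646 CPM, 1765 to 2042 CPM and 1961 to 2112 CPM, with log2 fold changes of 0.26 and 0.39. The edgeR adjusted p values were 8.63e-04 and 3.75e-04 for Rpl35 and 1.48e-03 and 3.16e-05 for Rpl13. No stimulated library of either gene overlapped with OCsCtr.

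Rplp0, Rplp1 and Rplp2 form the acidic stalk of the large subunit that recruits elongation factors, and Rplp0 is a common reference gene for qPCR. Rplp0 was at 2957, 3384, 3321 and 3258 CPM in OCsCtr, 3435, 3480.4, 3928 and 3687 CPM in OCsEo and 3715, 3783, 4026 and 3622 CPM in OCsEoS. The groups just failed to touch, since the lowest OCsEo library stood slightly above the highest OCsCtr library. The log2 fold change was 0.17 ± 0.05 in OCsEo and 0.23 ± 0.05 in OCsEoS (edgeR adjusted p = 0.0351 and 4.23e-03). Rplp1 rose by 0.24 and 0.34 and Rplp2 by 0.19 and 0.29 on the log2 scale (edgeR adjusted p between 2.37e-04 and 0.0306). The calls of Rplp0 and Rplp2 in OCsEo rested on few libraries, because without OCsCtr replicate 1 the adjusted p was 0.132 for Rplp0 and 0.0998 for Rplp2, and without OCsEo replicate 3 it was 0.130 and 0.107. Leaving out OCsCtr replicate 4 or OCsEo replicate 4 ended both calls as well, and leaving out OCsCtr replicate 3 ended that of Rplp0. With only the 2 groups compared, the edgeR adjusted p in OCsEo was 0.0627 for Rplp0 and 0.0572 for Rplp2. With the length trend taken out it was 0.271 and 0.116. Rplp0 in OCsEoS then gave a log2 fold change of 0.12 (edgeR adjusted p = 0.0566). Rpl13a, another reference gene and a part of an interferon-gated repressor of translation, rose from 1564 to 1815 CPM in OCsCtr to 1929 to 2237 CPM in OCsEo and 2105 to 2278 CPM in OCsEoS, with log2 fold changes of 0.27 and 0.38 (edgeR adjusted p = 2.65e-03 and 1.01e-04).

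In the small subunit, 24 of 32 genes were upregulated in OCsEo and 30 of 32 in OCsEoS. In the large subunit 30 and 40 of 51 were, where 9.06% and 11.8% of all genes tested were. The median log2 fold change was 0.24 for small and 0.19 for large subunit genes in OCsEo, and 0.33 and 0.28 in OCsEoS. Without the low-abundance paralogs, which are nearly all in the large subunit, the medians were 0.24 and 0.19 in OCsEo and 0.33 and 0.29 in OCsEoS. Without these paralogs, 23 of 31 small subunit genes were upregulated in OCsEo and 29 in OCsEoS. Of the 46 large subunit genes then left, 30 and 38 were. Members are not replicates, so the subunits were not tested against each other.

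Rps10, on the head of the small subunit, had the lowest p of the small subunit in OCsEo. It was at 831, 929, 870.0 and 858 CPM in OCsCtr, 1089.9, 1031, 1244 and 1144 CPM in OCsEo, and 1133, 1149, 1241 and 1174 CPM in OCsEoS. Neither stimulated group reached down to OCsCtr, and the log2 fold change was 0.37 ± 0.06 in OCsEo and 0.43 ± 0.06 in OCsEoS (edgeR adjusted p = 2.05e-04 and 3.67e-05). The annotation has the readthrough gene RPS10-NUDT3 in the same exons, so some reads could belong to either.

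Rps6, whose phosphorylation by S6 kinases is the usual readout of mTOR activity, was at 1637, 1708, 1674 and 1551 CPM in OCsCtr. It was at 1904, 1895, 2184 and 1869 CPM in OCsEo and 2002, 1964, 2117 and 2169 CPM in OCsEoS, with no overlap with OCsCtr. The log2 fold change was 0.26 ± 0.06 and 0.33 ± 0.06 (edgeR adjusted p = 2.95e-03 and 2.66e-04). These are mRNA levels and say nothing of phosphorylation.

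Rpsa, which doubles as a cell surface laminin receptor, was the most abundant member and took up 0.430% to 0.461% of all counts in OCsCtr. Its level was 4175, 4651, 4492 and 4279.5 CPM in OCsCtr, 4539, 4568, 5116 and 4631 CPM in OCsEo and 4971, 5162, 5337 and 5141 CPM in OCsEoS. Here OCsEo overlapped with OCsCtr and OCsEoS did not. The log2 fold change was 0.10 ± 0.05 in OCsEo (edgeR adjusted p = 0.181) and 0.23 ± 0.05 in OCsEoS (edgeR adjusted p = 2.02e-03), and the difference between OCsEoS and OCsEo was 0.13 (edgeR adjusted p = 0.306).

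Other small subunit genes moved by comparable amounts. Rps3, a part of the mRNA entry channel with a second role in DNA repair, was at 2525 to 2764 CPM in OCsCtr, 3023 to 3519 CPM in OCsEo and 3241 to 3483 CPM in OCsEoS. Rps9, close to the decoding site, was at 2288 to 2584 CPM, 2781 to 3261 CPM and 3028 to 3190.3 CPM. Rps27a, made as a fusion with ubiquitin, was at 1388 to 1560.1 CPM, 1766 to 2090.3 CPM and 1900.5 to 2157 CPM. In all of these the stimulated libraries stood clear of OCsCtr. The log2 fold changes in OCsEo were 0.29, 0.30 and 0.33, and in OCsEoS 0.34, 0.38 and 0.45 (edgeR adjusted p between 4.07e-05 and 9.35e-04). Rps14, whose loss of a copy causes a human anemia, rose by 0.27 and 0.42, and Rps23, part of the decoding centre, by 0.27 and 0.42 on the log2 scale (edgeR adjusted p between 2.1e-05 and 2.37e-03). Rps21 and Rps29, named after their values were seen, showed how far neighbours in the small subunit differed: 0.34 and 0.41 for Rps21 (edgeR adjusted p = 0.014 and 2.56e-03) against 0.10 and 0.17 for Rps29 (edgeR adjusted p = 0.344 and 0.0638). Without OCsEo replicate 3 the adjusted p of Rps21 in OCsEo was 0.0675.

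The 13 members called in neither comparison were of different kinds. Rpl3l, Rpl39l, Rpl29, Rpl21, Rpl24, Rpl26 and Rpl22l1 had low levels, with means of 0.449 to 95.7 CPM in OCsCtr. For Rpl29, Rpl26, Rpl21 and Rpl24, 61.7% to 99.6% of the counts on gene and pseudogenes were on the pseudogenes. With these counts added, Rpl26 was called in both comparisons, as given below. The other 6 of the 13 were abundant: Rpl10, Rpl4, Rpl23a, Rpl7a, Rps4x and Rps29. Rpl4, a core large subunit protein that lines the exit tunnel, was at 1490.0, 1417, 1358 and 1396 CPM in OCsCtr, 1462, 1505, 1503 and 1445 CPM in OCsEo, and 1462, 1445, 1435 and 1423 CPM in OCsEoS. All 3 groups overlapped. Its log2 fold changes of 0.06 ± 0.04 and 0.03 ± 0.04 (edgeR adjusted p = 0.382 and 0.74) were smaller than those of any called member.

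Rpl10, the X-linked protein that joins the large subunit late in assembly, was at 1521 to 1692 CPM in OCsCtr, 1576 to 1798 CPM in OCsEo and 1683 to 1753 CPM in OCsEoS. Its log2 fold changes were 0.03 ± 0.05 and 0.09 ± 0.05 (edgeR adjusted p = 0.794 and 0.232). Rpl23a, at the tunnel exit, gave the same fold changes. Rps4x, X-linked as well, gave 0.08 and 0.13 (edgeR adjusted p = 0.314 and 0.065), with every OCsEoS library above every OCsCtr library by a narrow margin. Rpl7a varied widely between replicates, with 327, 517, 384 and 394 CPM in OCsCtr, 315, 574, 385 and 366 CPM in OCsEo and 364, 371, 391 and 389 CPM in OCsEoS. Its log2 fold changes were 0.01 ± 0.14 and -0.10 ± 0.14 (edgeR adjusted p = 0.964 and 0.671). Replicate 2 was far above the others in OCsCtr and OCsEo and not in OCsEoS. The signs for Rpl10, Rpl23a, Rpl4, Rpl7a and Rps4x turned under some settings without passing the test, and Rps4x was called in OCsEoS by DESeq2 (adjusted p = 0.0307) and without OCsCtr replicate 2 (edgeR adjusted p = 0.0316).

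Several members have a paralog of their own. Rps27 and its p53-responsive paralog Rps27l rose alike, Rps27 from 607 to 707 CPM in OCsCtr to 747 to 873 CPM in OCsEo and 819 to 952 CPM in OCsEoS, and Rps27l from 301 to 351 CPM to 385 to 427 CPM and 389 to 485 CPM. The log2 fold changes were 0.30 and 0.42 for Rps27 and 0.31 and 0.43 for Rps27l (edgeR adjusted p between 1.1e-04 and 3.38e-03). Rpl7 rose by 0.20 and 0.28 on the log2 scale (edgeR adjusted p = 7.56e-03 and 3.03e-04). Rpl7l1, a nucleolar relative at 140.1 to 156 CPM in OCsCtr, gave 0.17 and 0.24 (edgeR adjusted p = 0.0621 and 7.71e-03). Rpl22, which has roles in lymphocyte development, gave 0.18 and 0.33 (edgeR adjusted p = 0.0638 and 1.24e-03), and its paralog Rpl22l1, at 92.8 to 98.4 CPM in OCsCtr, gave 0.11 and 0.19 (edgeR adjusted p = 0.494 and 0.162). Rpl3 was at 993 to 1092 CPM in OCsCtr and Rpl39 at 392 to 455 CPM. Their tissue-restricted paralogs, the muscle form Rpl3l and the testis form Rpl39l, were at 0.353 to 0.936 CPM and 0.971 to 2.11 CPM. Both were at or below 2.79 CPM in every stimulated library, and Rpl3l had no count in OCsEo replicate 3 and OCsEoS replicate 4.

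Levels between genes were compared per kilobase of the deposited gene length. In OCsCtr, Rplp1 was highest among large subunit genes at 6787 CPM per kb, followed by Rpl8 at 2385 and Rpl41 at 2075 CPM per kb. In the small subunit the highest were Rps12 at 2944, Rps23 at 2652 and Rps15 at 2456 CPM per kb. The lowest were Rpl3l at 0.373, Rpl29 at 0.563 and Rpl21 at 0.713 CPM per kb in the large subunit, and Rps18 at 24.3, Rps2 at 24.5 and Rps15a at 177 CPM per kb in the small subunit. Proteins of which the ribosome mostly holds a single copy were thus represented by very unequal counts per kb of deposited length. These values depend on that length, which was 6270 bases for Rps15a, at a mean of 1107 CPM in OCsCtr. Per kb of the principal transcript, Rpl41 was at 4165 and Rps15a at 214 CPM per kb. Some of the lowest members had most of their counts on pseudogene rows of the same table. The table has 1617 rows of pseudogenes named after 76 of the members, and summed counts of a gene and its pseudogenes were on the pseudogenes for 99.6% in Rpl29, 97.7% in Rpl26 and Rps2, 96.6% in Rpl21 and 87.6% in Rps18. In all, 9 members had over 50% of their counts there. Processed pseudogenes can match the spliced mRNA closely, so how reads were divided between them and the gene is uncertain. Exons of other genes also overlapped those of 27 members on the same strand and 19 on the opposite strand. The 45 tested members without such an overlap had medians of 0.24 in OCsEo and 0.33 in OCsEoS. Of them 33 and 39 were upregulated, where 9.06% and 11.8% of all genes were.

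With pseudogene counts added to the gene, an alternative chosen after the data were seen, some of these members came up to the levels of the others. Rps2 together with its pseudogenes held a mean of 1898 CPM in OCsCtr, 2144 CPM in OCsEo and 2274 CPM in OCsEoS, against 44.9 CPM in OCsCtr for the gene alone. Its log2 fold changes were then 0.18 and 0.26 (edgeR adjusted p = 0.0283 and 1.47e-03). Rpl26 with its pseudogenes held 1542, 1761 and 1876 CPM and rose by 0.19 and 0.28 (edgeR adjusted p = 0.0207 and 9.49e-04), where the gene alone gave -0.07 and 0.21 (edgeR adjusted p = 0.789 and 0.287). Rps18, a reference gene, held 466, 598 and 667 CPM with its pseudogenes and rose by 0.36 and 0.52 (edgeR adjusted p = 5.49e-04 and 1.32e-05). The gene alone gave 0.24 and 0.45 (edgeR adjusted p = 0.201 and 0.0107). Rpl21, Rpl29 and Rpl24 stayed low, with 65.8, 107 and 28.9 CPM in OCsCtr. Exons of other genes overlapped those of Rpl24 (Gm28037) and Rpl21 (Gm25091 and Gm23202) on the same strand. How reads were divided between these genes was not tested. With pseudogene counts added, 59 members were upregulated in OCsEo and 71 in OCsEoS. The share of all genes called is given above only for the fit with pseudogenes kept apart. Rpl29 became the only member to be downregulated, by 0.31 on the log2 scale in OCsEoS (edgeR adjusted p = 0.0233), with 107 CPM in OCsCtr and 86.6 CPM in OCsEoS, nearly all of it on pseudogene rows.

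Rpl17 on chromosome 18 (mm10, 75000477 to 75003381, plus strand) was the only member to differ between OCsEoS and OCsEo. It was at 159, 286, 175 and 164 CPM in OCsCtr, 215, 202, 249 and 206 CPM in OCsEo, and 478, 815, 669 and 231 CPM in OCsEoS. OCsEoS replicate 4 lay within the range of the other groups, and OCsCtr replicate 2 above all OCsEo libraries. The log2 fold change was 1.48 ± 0.25 in OCsEoS against OCsCtr and 1.33 ± 0.25 against OCsEo (edgeR adjusted p = 2.54e-04 and 0.0148), and 0.15 ± 0.25 in OCsEo (edgeR adjusted p = 0.744). The call against OCsEo rested on single libraries, with an adjusted p of 0.0505 without OCsEo replicate 1, 0.0529 without OCsEo replicate 2 and 0.0647 without OCsEoS replicate 3.

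Its processed pseudogene Rpl17-ps10 on chromosome 7 (72648757 to 72649311) also held counts in every library. Of the counts on both, Rpl17 held 20.2%, 30.8%, 21.1% and 21.0% in OCsCtr and 21.8%, 21.9%, 22.8% and 21.3% in OCsEo. In OCsEoS it held 50.1%, 77.4%, 57.4% and 24.0%. The sum of both, in CPM without TMM scaling, was 791.6 to 920.3 in OCsCtr, 928.0 to 1055 in OCsEo and 961.4 to 1152 in OCsEoS, with overlap between the stimulated groups. Over Rpl17 and all of its pseudogenes, the log2 fold change was 0.25 in OCsEo, 0.30 in OCsEoS (edgeR adjusted p = 0.015 and 3.21e-03) and 0.05 between them (edgeR adjusted p = 0.831). Rpl17-ps10 alone was at 625.3 to 647.4 CPM in OCsCtr, 724.9 to 814.3 CPM in OCsEo and 238.5 to 738.5 CPM in OCsEoS, where it was lowest in the library with the most Rpl17. In OCsCtr replicate 2 the high Rpl17 stood beside a Rpl17-ps10 level within the OCsCtr range. The reason for the different division in OCsEoS was not tested.

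**Figure D3:**
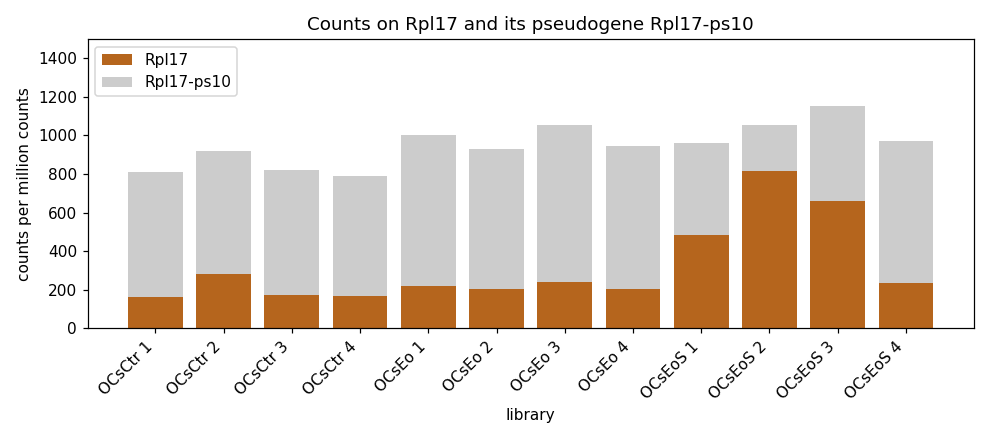
CPM without TMM scaling on Rpl17 (brown) and on its pseudogene Rpl17-ps10 (grey), stacked, in each of the 12 libraries. Rpl17 takes 20.2% to 30.8% of the bar in OCsCtr, 21.3% to 22.8% in OCsEo and 24.0% to 77.4% in OCsEoS, and the height of the bars differs far less.

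The relation of the members' change to the gene length deposited with the counts was weak, and somewhat stronger to transcript length in OCsEo. The deposited length ranged from 404 to 6270 bases over the members, with a median of 1560.5. Across the 83 members, Pearson's r between log2 length and log2 fold change was -0.04 in OCsEo and 0.00 in OCsEoS (Spearman's rho -0.12 and 0.06). Across the 13681 genes tested r was -0.13 and -0.17 (rho -0.19 and -0.24), longer genes having lower fold changes. With the length of the principal transcript in place of the deposited length, r over the members was -0.15 in OCsEo and -0.04 in OCsEoS (rho -0.28 and -0.14), and over all genes with such a length -0.16 and -0.20 (rho -0.23 and -0.27). Genes are not independent replicates and share libraries and depth, so these are descriptions. Cut by length, members under 1000 bases had a median log2 fold change of 0.23 in OCsEo and 0.30 in OCsEoS, and members of 3000 bases and over had 0.19 and 0.33. All genes tested in the same bins had 0.07 and 0.14 when under 1000 bases and -0.05 and -0.07 at 3000 bases and over. The members' median was above that of all genes in each of the 4 bins. With each library's trend on gene length taken out before the test, 39 members were upregulated in OCsEo and 60 in OCsEoS, with medians of 0.13 and 0.21. The share of all genes called is given above only for the fit with this trend left in.

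**Figure D4:**
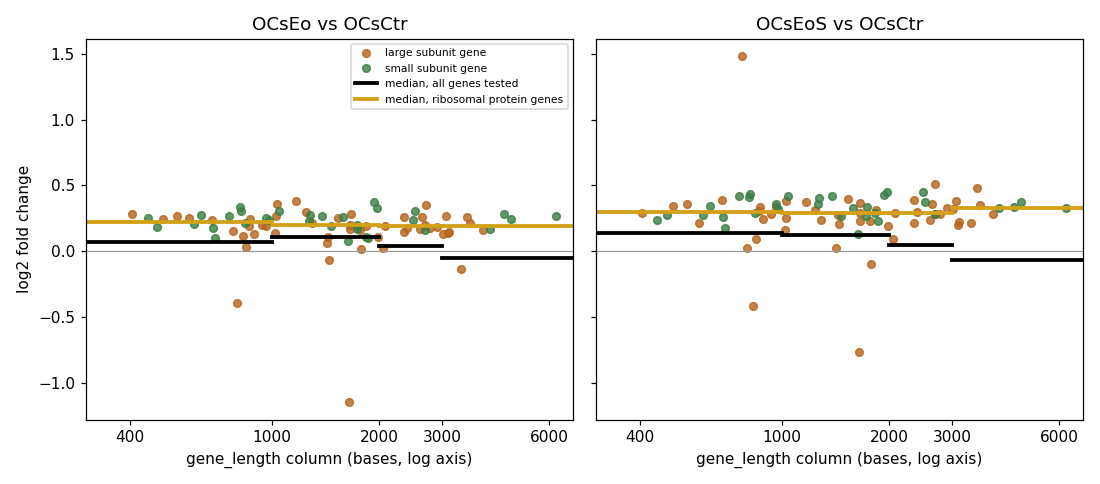
Log2 fold change against the deposited gene length (bases, log axis) for large subunit (brown) and small subunit (green) genes in OCsEo and OCsEoS, each against OCsCtr, with lines for the median of the members (yellow) and of all genes tested (black) in 4 length bins. The members' median stays near 0.2 (OCsEo) and 0.3 (OCsEoS) in each bin, and that of all genes is 0.07 and 0.14 below 1000 bases and -0.05 and -0.07 at 3000 bases and over.

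Abundance was considered in the same way, with a limit set after the data were seen. At a mean log2 CPM of 8 or more stood 70 of the 83 members, of which 54 were upregulated in OCsEo and 64 in OCsEoS. Among the 652 other genes at this level, 144 were upregulated and 138 downregulated in OCsEo, and 183 and 168 in OCsEoS. The abundant members also varied together from replicate to replicate within groups, with a median pairwise r of 0.75 against 0.22 among the other abundant genes. These pairs share libraries, and OCsEo replicate 3 was the highest OCsEo library in the members' summed share.

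Introns of ribosomal protein genes often carry small nucleolar RNAs (snoRNAs), which guide rRNA modification. Of the 83 members, 30 (36.1%) held an annotated snoRNA on the same strand, against 1.45% of the 13598 other genes tested. The median log2 fold change was 0.16 in OCsEo and 0.28 in OCsEoS for host genes and 0.25 and 0.33 for the others. Of the abundant members that were called in neither comparison, Rpl7a, Rpl4, Rpl10 and Rpl23a carry snoRNAs and Rps4x and Rps29 do not. The split was made after the data were seen and was not tested.

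Runs of pyrimidines, as in the TOP feature, were looked for in promoters. Windows of 30 bases, 20 before and 10 from the annotated start, were taken from RefSeq (GRCm38.p6) for the 63 members that matched by symbol. The windows below were picked after their values were seen, and show members with a long pyrimidine run that rose (Rps10, Rps6, Rpl35), members without one that rose (Rpl41, Rpl11), members with such a run that were not called (Rpl7a, Rpl4), and abundant uncalled members without one (Rpl10, Rps4x). They read 5' to 3' on the gene's strand, and capitals mark the longest run of C and T.
Rps10 (chr17:27635235-27635264, minus strand): acgctgcgccgcgcacgCCCCTTCCTTTCC
Rps6 (chr4:86857358-86857387, minus strand): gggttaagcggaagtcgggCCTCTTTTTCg
Rpl35 (chr2:39005122-39005151, minus strand): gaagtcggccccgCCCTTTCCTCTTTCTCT
Rpl41 (chr10:128549159-128549188, minus strand): gacgacacacgggccggCTCggaagtgacg
Rpl11 (chr4:136053384-136053413, minus strand): gCCTCCTgacccataaggccacggggccgg
Rpl7a (chr2:26910787-26910816, plus strand): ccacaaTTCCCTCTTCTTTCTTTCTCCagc
Rpl4 (chr9:64173367-64173396, plus strand): agTCTTTCCTTTTCCTgtgggagcagccgg
Rpl10 (chrX:74270796-74270825, plus strand): CTatggttgttacagtggaagataggccgc
Rps4x (chrX:102189382-102189411, minus strand): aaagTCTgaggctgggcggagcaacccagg

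A run of at least 8 C or T lay in 26 of the 63 windows (41.3%), against 12.4% of the windows of all 27025 symbols. For runs of A or G the shares were 4.76% and 12.8%. The word CTTTC was on the gene's strand in 22.2% of the members' windows and 4.16% of all, and on the other strand in 4.76% and 3.31%. In the whole 300-base promoters, on either strand, CTTTC was in 81.0% and 57.1%. CTTTC lies within some of the longer runs, so these measures overlap. The annotated start was a C in 33.3% of members and 16.2% of all. Members upregulated in OCsEoS had a run of at least 8 in 23 of 53 windows (43.4%), and members tested and not called had one in 3 of 9 (33.3%). A match describes these letters around an annotated start and is not a measured start site. The longest run can lie wholly before that start, as in Rpl4, and is then outside the annotated mRNA. For the 10 members with more than 1 promoter entry, the first was used.

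Genes around the members in the pathway were read from fixed lists. The naming rule misses some ribosomal protein genes, of which a pair are given here. Fau (the ubiquitin-like fusion that yields eS30) rose by 0.28 and 0.35 on the log2 scale (edgeR adjusted p = 1.15e-03 and 1.35e-04) and Rpl36al by 0.31 and 0.38.

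Mitochondrial ribosomal protein genes, which serve translation inside mitochondria, showed 3 of 76 upregulated and 1 downregulated in OCsEo, and 22 and 0 in OCsEoS. Upregulated genes thus made up 3.95% and 28.9%, where all genes gave 9.06% and 11.8% (for the 0 lower in OCsEoS, 1 gene was lower at an unadjusted p under 0.05 and 1 by DESeq2). Their median log2 fold changes were 0.07 and 0.14. Mrpl33 rose by 0.38 and 0.33 (edgeR adjusted p = 6.42e-03 and 0.0143), the latter with an adjusted p of 0.0530 without OCsCtr replicate 1. Mrps36, also known as a part of the 2-oxoglutarate dehydrogenase complex, fell by 0.28 in OCsEo (edgeR adjusted p = 0.0193). That call was lost without any of OCsCtr replicates 2 and 3 and OCsEo replicates 1 and 2, with an adjusted p of 0.0553 to 0.0965.

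Of 48 ribosome biogenesis factors, 7 were upregulated in OCsEo and 17 in OCsEoS, or 14.6% and 35.4%, where all genes gave 9.06% and 11.8%. Their median log2 fold changes were 0.13 and 0.19. In both comparisons 0 were downregulated (0 at an unadjusted p under 0.05 and 0 by DESeq2), where all genes gave 8.35% and 11.2%. Nhp2, a core protein of the pseudouridylation complex, was at 261.8 to 302.4 CPM in OCsCtr, 327.5 to 413.2 CPM in OCsEo and 360.1 to 467.9 CPM in OCsEoS. Its log2 fold changes were 0.36 and 0.50 (edgeR adjusted p = 3.08e-03 and 1.46e-04). Fbl, the rRNA methyltransferase fibrillarin, rose by 0.30 and 0.44 (edgeR adjusted p = 3.58e-03 and 9.77e-05). The share of counts on rRNA genes in the table, those of the mitochondrial genome included, was 0.260% to 0.291% in OCsCtr. It was 0.204% to 0.262% in OCsEo and 0.194% to 0.264% in OCsEoS.

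Among 36 translation factors and other TOP genes, 8 were upregulated (22.2%) and 1 downregulated (2.78%) in OCsEo, where all genes gave 9.06% and 8.35%. In OCsEoS 15 were upregulated (41.7%) and 2 downregulated (5.56%), where all genes gave 11.8% and 11.2%. Eif5a, which relieves stalled ribosomes, rose by 0.32 and 0.38, and Gnb2l1, which encodes the ribosome-bound scaffold RACK1, by 0.19 and 0.35 (edgeR adjusted p between 2.26e-05 and 0.012). The elongation factor gene Eef2, itself a TOP gene, fell by 0.19 in OCsEoS (edgeR adjusted p = 8.54e-03). Vim, the intermediate filament gene vimentin, fell by 0.24 in OCsEoS (edgeR adjusted p = 5.73e-04).

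Of 23 mTOR and Myc regulators, 3 were upregulated and 1 downregulated in OCsEo (13.0% and 4.35%, where all genes gave 9.06% and 8.35%), and 5 and 3 in OCsEoS (21.7% and 13.0%, where all genes gave 11.8% and 11.2%). Myc was at 24.98 to 31.76 CPM in OCsCtr, 29.7 to 39.7 CPM in OCsEo and 30.6 to 38.9 CPM in OCsEoS, with log2 fold changes of 0.36 (edgeR adjusted p = 0.0272) and 0.31 (edgeR adjusted p = 0.051). Its call in OCsEo was lost on leaving out any of OCsCtr replicates 2, 3 and 4 and OCsEo replicates 1 and 2. In OCsEoS Myc was called by DESeq2 (adjusted p = 0.0262) and under several other settings (edgeR adjusted p between 0.0279 and 0.0494). Max, the partner of Myc, rose by 0.28 and 0.35. Its call in OCsEo was lost with the length trend taken out (edgeR adjusted p = 0.0634). Trp53, the gene of p53, gave 0.31 and 0.06 (edgeR adjusted p = 0.0207 and 0.694), and its target Cdkn1a, a cell cycle inhibitor, gave 0.19 and 0.45 (edgeR adjusted p = 0.0954 and 1.94e-04). Rragd, a Rag GTPase that helps to activate mTOR complex 1, gave -0.45 and -0.58 (edgeR adjusted p = 0.116 and 0.0373). The call of Trp53 in OCsEo was lost without OCsCtr replicate 2 or OCsEo replicate 1, with an adjusted p of 0.0786 and 0.0920. That of Rragd in OCsEoS was lost without any of OCsCtr replicates 2 and 4 and OCsEoS replicates 1, 2 and 3, with an adjusted p of 0.0675 to 0.171, and at 0.0622 with the length trend taken out. Mtor gave -0.12 and -0.11 (edgeR adjusted p = 0.404 and 0.392) and Larp1 -0.18 and -0.04 (edgeR adjusted p = 0.368 and 0.884). The signs of Mtor and of Larp1 in OCsEoS turned with the length trend taken out. Sesn2, a stress-induced inhibitor of mTOR complex 1, fell by 0.93 and 0.45 (edgeR adjusted p = 3.36e-04 and 0.0386). Its call in OCsEoS was lost without any of OCsCtr replicates 1, 2 and 4 and OCsEoS replicates 1, 3 and 4, with an adjusted p of 0.0501 to 0.132. Of the 7 S6 kinase family genes, 0 were called in either comparison by edgeR, with 0 and 1 at an unadjusted p under 0.05 and 0 and 1 by DESeq2.

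**Figure D5:**
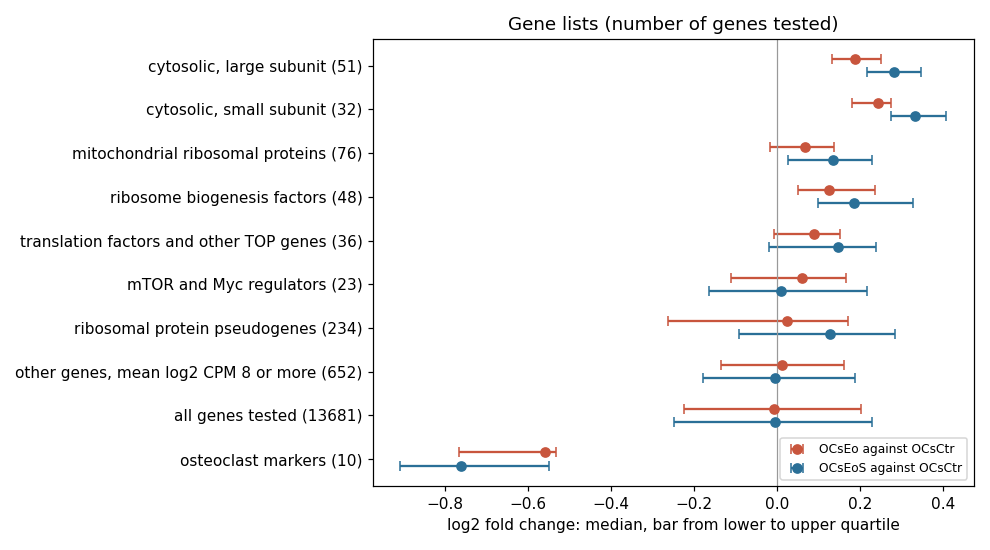
Median log2 fold change (points) and lower to upper quartile (bars) of the genes in each list, for OCsEo (red) and OCsEoS (blue) against OCsCtr, with the number of genes tested in brackets. The cytosolic subunits have medians of 0.19 to 0.33, the other translation lists of 0.07 to 0.19, all genes tested lie near 0 and the osteoclast markers at -0.56 and -0.76.

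Markers of other cells were also read beside these results. Eosinophil markers summed to 57.1 to 73.7 CPM in OCsCtr, 60.1 to 82.2 CPM in OCsEo and 49.3 to 55.5 CPM in OCsEoS, of which Ccr3 made up 45.7 to 65.6 CPM over the 12 libraries. Of the 10 listed, Epx, Prg3, Ear1 and Ear6 were at 0 in every OCsEoS library. Each of the 10 had counts in some library. Of 5 eosinophil markers tested, 2 were higher and 1 lower in OCsEo, with log2 fold changes from -0.29 to 5.17. In OCsEoS 2 were lower, with log2 fold changes from -2.74 to 1.14. Neutrophil markers summed to 311 to 451 CPM, 452 to 604 CPM and 355 to 422 CPM, with 4 of 8 higher in OCsEo. Of 6 macrophage markers, 3 were higher in each stimulated group, with 1 lower in OCsEo and 2 in OCsEoS, and sums of 6436 to 7055 CPM, 6624 to 8146 CPM and 6154 to 7264 CPM. T cell, B cell and erythroid markers summed to at most 4.49, 20.4 and 5.79 CPM. The part of these cells in the members' rise was not tested.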

How the data were processed

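Bulk RNA-seq. counts per gene were deposited for 12 libraries in 1 table, as raw counts with gene names, biotypes and gene lengths. Per the labels and the study's methods, the authors prepared RNA with a NEBNext Ultra kit, cleaned paired-end reads with fastp, aligned them to mm10 with HISAT2 2.0.5 and counted reads per gene with featureCounts. The annotation release and the strand setting were not given in the sources used here. Every count column matched a sample title.

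Genes were filtered with filterByExpr (minimum count 10), leaving 13681, and tested with edgeR 4.0.16 (R 4.3.3, limma 3.58.1) by quasi-likelihood F-tests with TMM scaling. All 12 libraries were in the fit, with group as the only term, and p-values were Benjamini-Hochberg adjusted over all genes tested. SE is the log2 fold change over the square root of F. CPM are TMM-adjusted, and averages of log2 CPM used a prior count of 2. The scripts were tested on simulated data. DESeq2 1.42.0 and other settings served as alternatives.

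Members and gene lists were chosen with earlier results of these data known. A member was called at an adjusted p under 0.05 alone, a rule set with the counts with and without a log2 cut-off of 0.5 known. Genes were named by fixed rules: members past 0.5, the 6 with the lowest p in each direction per comparison with OCsCtr, the 3 highest and lowest per kb of each subunit, paralogs, Rps6, Rpsa, the stalk genes, Rpl13a and Rps18, and the 2 with the lowest p in each direction of each list, plus Myc, Mtor and Larp1. Rpl4, Rpl23a, Rps21 and Rps29 were named after their values were seen. The splits by length bin, abundance, snoRNA and pseudogene, and the promoter windows with their run length, were also chosen after seeing the data. Values after ± are the SD over replicates for shares of counts and the SE of the edgeR fit for log2 fold changes. Whether replicate numbers pair the libraries is not settled, and the fit did not use them. A ribosomal protein gene outside the naming rule is not reported here.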

Additional observations from a re-analysis of the deposited data

Results flagged for a closer look

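Rpl17 differed between the responses to supernatant and to cells, with a log2 difference of 1.33 between OCsEoS and OCsEo (edgeR adjusted p = 0.0148), and with 286 CPM in OCsCtr replicate 2 that library stood far above the other OCsCtr libraries at 159 to 175 CPM. The difference was 0.05 with pseudogene counts added (edgeR adjusted p = 0.831). Single libraries also stood apart from their group, by Dixon's test at the 95% level, for Rps14 (2691 CPM) and Rps3 (3483 CPM) in OCsEoS replicate 3, and for Rps27a (2090.3 CPM), Rps6 (2184 CPM) and Rpsa (5116 CPM) in OCsEo replicate 3. These were the highest libraries of their groups in the members' summed share. In all 6 of the 126 groups of values examined were marked, and chance marks about 1 in 20.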

How the results depend on the processing

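The members' median kept its direction under all settings tried and no member was called lower, except Rpl29 in OCsEoS with pseudogenes added. Each group held 4 replicates, and members with few counts had wide standard errors. Over edgeR with other scalings, other filters, only the 2 groups compared, a replicate block, mitochondrial genes left out, a GC trend taken out, pseudogenes added and DESeq2, 44 to 61 members were called in OCsEo and 69 to 72 in OCsEoS. Shares of all genes called are given in the Results only for the first fit, not for these alternatives. Requiring a log2 fold change over 0.5 left 0, 2 and 1 for OCsEo, OCsEoS and OCsEoS against OCsEo. With the length trend taken out the counts were 39, 60 and 1 and the OCsEoS median was 0.21. Leaving out 1 library at a time gave 38 to 61, 67 to 72 and 0 to 1 calls, and medians of 0.17 to 0.24, 0.29 to 0.33 and 0.07 to 0.14. The only call between OCsEoS and OCsEo, Rpl17, was lost on leaving out OCsEo replicate 1, OCsEo replicate 2 or OCsEoS replicate 3, and 0 remained with pseudogenes added. Spearman's rho between length and change was 0.21 for OCsEoS against OCsEo, where Pearson's r was 0.05.

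The replicate block gave 61, 72 and 1 calls. Correlations between the deviations of libraries with the same number were small (r from -0.04 to 0.09). In most cases they exceeded the highest correlation with a library of another number. Whether the numbers pair the libraries is therefore not settled. Of the genes named in the text, the block changed the calls of Rpl22, Rpl3 and Rpl7l1 in OCsEo. It also changed those of Rps29, Rps4x and Myc in OCsEoS, and all of these passed with it.

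Of 2904 values for 121 named results, 2781 stayed on their side of the threshold, 53 lost and 46 gained their call and 24 changed sign. Of the sign changes only that of Rpl26 with pseudogenes added was past the threshold. As log2 fold changes with the length trend taken out, they were in OCsEo 0.013 for Mtor, -0.050 for Rpl10, -0.068 for Rpl23a, -0.037 for Rpl4, -0.068 for Rpl7a and -0.017 for Rps4x. In OCsEoS they were 0.062 for Larp1, 0.044 for Mtor, -0.037 for Rpl23a and -0.097 for Rpl4. With pseudogenes added, Rpl21 gave 0.161 and Rpl26 0.192 in OCsEo. On leaving out 1 library at a time, the values in OCsEo ran from -0.0186 to 0.0515 for Rpl10, -0.334 to 0.0424 for Rpl21, -0.0185 to 0.0600 for Rpl23a, -0.174 to 0.0940 for Rpl26 and -0.192 to 0.157 for Rpl7a, and in OCsEoS from -0.150 to 0.0404 for Larp1 and -0.199 to 0.0452 for Rpl7a. Why these settings moved the values was not tested.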
